A study of Oryza sativa Japonica Group with 12 samples.

Results

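Late crown root (CR) primordia of rice were compared with early ones on 6 arrays, 3 for each stage, out of 12 in the study. The members were chosen by the array titles alone, and each array held RNA pooled from the primordia of a pair of stem bases. The other arrays were 3 of intermediate primordia, used here as a check of order, and 3 of stem cortex, given as values beside a result. Both groups entered only alternative fits of late against early. All plants were wild type seedlings of the japonica cultivar Taichung 65, grown without treatment on half-strength Murashige and Skoog medium for 5 days, then for 3 days in flasks of the same medium. The 6 stem bases were fixed, cut into sections of 15 µm and dissected with a laser. The 3 stages were told apart by the ring of the stem base in which a primordium lay, so each group is a position in the stem as well as a stage. RNA of all groups was amplified from nanogram amounts before hybridization. The values are log2 signals, so a difference of 1 is a 2-fold change.

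Rice builds most of its root system from crown roots, which arise at the stem base from cells next to the vascular cylinder. A founder cell divides into a small dome, which lays out the epidermis, ground tissue, stele and root cap around a quiescent centre, and the primordium then enlarges and breaks through the stem. PLETHORA, WOX, GRAS and LBD transcription factors, together with auxin, are known from rice and Arabidopsis to set up and maintain such a meristem.

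The signals of the 2 stages were close for most genes. Of 24160 genes with a probe set of their own, the median late minus early difference was 0.00, and the quartiles lay at -0.12 and 0.12. Many of these genes were dim (median signal of the chosen probe sets 2.90), so these figures do not show how alike the well expressed genes were. In a limma fit, 7 genes (0.0290%) passed a Benjamini-Hochberg adjusted p under 0.05 and differed by 1.5-fold or more, of which 3 (0.0124%) were higher and 4 (0.0166%) lower in late primordia. Only for these 7 genes are the words rose and fell used. At the thresholds of the study, an unadjusted p under 0.01 and 1.5-fold, 336 genes (1.39%) differed, 153 higher (0.633%) and 183 lower (0.757%) in late primordia, and these are called passing genes below. At any fold change 475 genes had a p under 0.01, where 242 would be expected if no gene differed. In all 336 the late and early arrays did not overlap, and over all genes the 3 late arrays lay above the 3 early ones in 1803 (7.46%) and below them in 1813 (7.50%). Of the largest differences, 13 passing genes were at least 4-fold higher and 7 at least 4-fold lower. In 26 of the 153 higher genes the early mean lay below the median signal of the chosen probe sets (2.90). These are bulk samples, so fewer cells of a type and less RNA per cell cannot be told apart in any of these values.

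**Figure D1:**
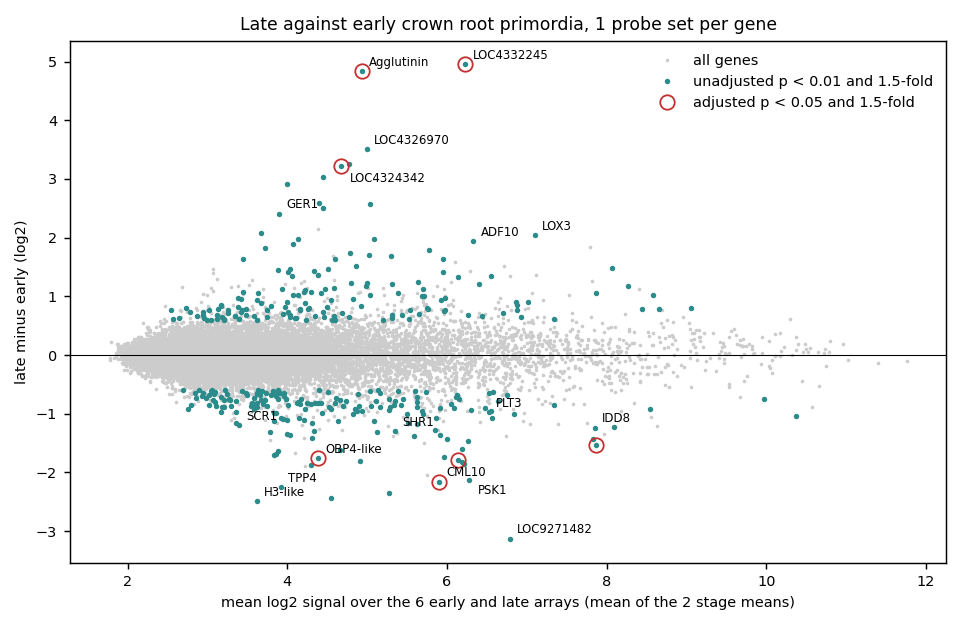
Late minus early difference (log2) of every gene against its mean signal over the 6 arrays (log2). The quartiles of the 24160 genes lie at -0.12 and 0.12, the 7 genes past the adjusted p are circled, and the passing genes (153 above and 183 below 0) are coloured.

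The deposited values were already normalized, so like array medians cannot show or exclude a shift between the stages. The median signal was 2.82 to 2.91 on the 9 primordium arrays, and the 98th percentile 8.74 to 8.76 on the early and 8.74 to 9.06 on the late arrays. This percentile was above every early array in late replicates 1 (9.06) and 2 (8.92). Arrays of the same stage were hardly more alike than arrays of different stages, with correlations over genes of 0.938 to 0.967 within the early, 0.957 to 0.963 within the late and 0.932 to 0.966 between the stages. The mean levels of marker lists of other tissues were low at both stages. The mean of 11 chlorophyll binding and photosystem genes was 2.76 to 2.83 on early and 2.55 to 2.81 on late arrays, against 3.66 to 4.35 in cortex. Its brightest member, *PSBW* (LOC4327150), had means of 5.55 and 5.30, against 7.93 in cortex. That of 15 xylem genes, the secondary wall cellulose synthases and laccases, was 2.39 to 2.50 and 2.41 to 2.45, and that of 25 CASP family genes 3.02 to 3.09 and 3.01 to 3.03, against 3.03 to 3.12 in cortex. The brightest CASP family gene at both stages, *OsCASPL5B3* (LOC4346505), had means of 5.00 and 4.50, against 4.08 in cortex. A low list mean does not show that a tissue was absent. The phloem sucrose transporter *SUT1* gave 2.30 to 2.62 and 2.24 to 2.34, and the root hair expansin *EXPB5* 2.35 to 2.52 and 2.41 to 2.54. No gene of these marker lists passed in either direction. Root cap markers were not matched and were not analysed here.

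The gene that rose the most, LOC4332245, carries no name or description in the tables used. Its signal was 3.36, 3.94 and 3.96 on the early arrays (replicates 1 to 3), 7.13, 8.56 and 5.21 on the intermediate and 8.24, 8.88 and 9.00 on the late arrays. Early arrays were thus not far above the median probe set, all late arrays were near the 98th percentile, and the intermediate arrays spread over the gap. The difference was 4.95 (SE 0.26, 31.0-fold, adjusted p = 0.0130 from limma). In cortex the signal was 7.33 in replicate 1 and 3.27 and 3.69 in the others, so 1 cortex array was near the late level.

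A lectin gene, *Agglutinin* (LOC4335068), rose to a like extent. Lectins bind sugars and are widespread in plant storage and defence. Its signal was 2.82, 2.32 and 2.42 on early, 2.81, 6.75 and 3.00 on intermediate and 6.97, 7.07 and 8.02 on late arrays, a difference of 4.83 (SE 0.30, 28.5-fold, adjusted p = 0.0202). Here only intermediate replicate 2 approached the late arrays, while the other intermediate arrays were near the early level. Cortex again split, with 8.03 in replicate 1 and 2.69 and 2.78 in the others. The third gene that rose, LOC4324342, is also unnamed, and had 2.79, 3.07 and 3.32 on early, 4.43, 6.19 and 2.41 on intermediate and 6.74, 6.25 and 5.86 on late arrays (difference 3.22, SE 0.25, adjusted p = 0.0278). Unlike the others it was low on all 3 cortex arrays, at 2.82, 3.04 and 2.41.

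The 4 genes that fell were well expressed early and lost part of their signal. *CML10* (LOC4325762), which encodes a calmodulin-like calcium sensor, had 6.72, 7.19 and 7.02 on early, 5.97, 5.98 and 6.42 on intermediate and 4.71, 5.06 and 4.69 on late arrays. Every intermediate array lay between both groups, and the late mean was 2.16 lower (SE 0.17, 4.46-fold, adjusted p = 0.0278). Its cortex signal was 6.73, 8.12 and 7.16, so late primordia were below both cortex and early primordia.

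LOC4334219, weakly similar to the Arabidopsis Dof transcription factor OBP4, had 5.46, 5.27 and 5.10 on early, 4.08, 3.84 and 4.95 on intermediate and 3.56, 3.54 and 3.43 on late arrays (difference -1.76, SE 0.13, adjusted p = 0.0278). OBP4 is known in Arabidopsis as a regulator of cell growth and root hair formation. The unnamed LOC4337874 had 6.83, 7.00 and 7.26 on early, 5.89, 5.63 and 7.25 on intermediate and 5.22, 5.15 and 5.35 on late arrays (difference -1.79, SE 0.14, adjusted p = 0.0278). LOC4325978, described only as an expressed protein, had 8.62, 8.65 and 8.62 on early, 8.03, 7.45 and 8.18 on intermediate and 6.91, 7.25 and 7.11 on late arrays (difference -1.54, SE 0.12, adjusted p = 0.0278). In these 3 genes too the late and early arrays were far apart, and intermediate replicate 3 stood nearest the early ones.

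**Figure D2:**
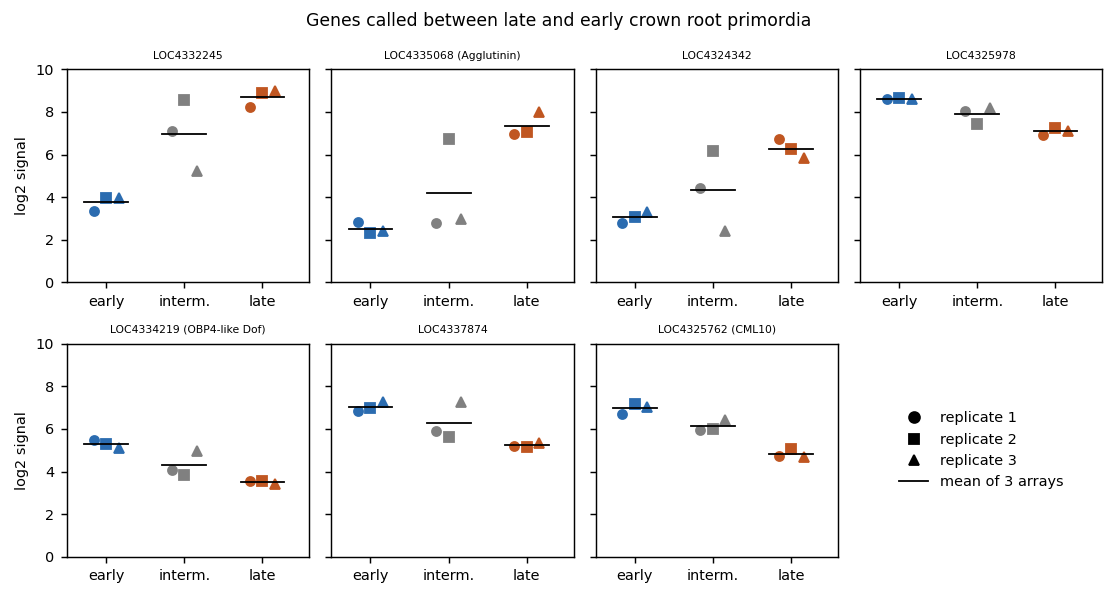
Signal (log2) of the 7 genes past the adjusted p on each of the early, intermediate and late arrays, 1 panel a gene, with points for arrays and bars for the group means. The late and early arrays are apart in every panel, and the 3 intermediate arrays are spread out, from 5.21 to 8.56 in LOC4332245 and from 5.97 to 6.42 in *CML10*.

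These calls rest on few arrays. With 1 array left out, none of the 7 genes was called without early replicate 1, 2 or 3 or late replicate 2, 1 of them without late replicate 1 and 2 without late replicate 3, and with the replicate as a block 1 of them was called, LOC4332245 (adjusted p = 0.00930, range over its 21 alternatives 0.00671 to 0.528). For *Agglutinin* the range was 0.00844 to 0.561, for LOC4324342, LOC4334219 and LOC4337874 0.0143 to 0.822 and for LOC4325978 and *CML10* 0.0143 to 0.956. With the replicate block on 6 arrays, 13 of the other 53 passing genes that were named by rule missed the unadjusted threshold, at an unadjusted p from 0.0106 to 0.0201 in limma. Among them were the Magpie-like gene, *IAA24*, *LOGL6*, *PCF3*, *OSH1*, *TUB2*, *KIN14A*, *EXPB4*, *EXP16*, *ADF-10* and *AP2-1*, described below. In the same fit 4 named genes that did not pass otherwise did so, *OsPP2C39* (LOC9271405), *OsTCP7*, *OsPLT5* and LOC4328187, at an adjusted p of 0.129 or above.

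Regulators of the root meristem were mostly lower in late primordia. Of 28 genes sought by name or locus, 22 were matched. Loci came only from the part held here of the study's table of genes that differ from cortex. A gene sought by locus could thus match only among those. Of the 22, 8 were lower and passing (0.757% of all genes) and none was higher and passing (0.633%). In 15 all late arrays lay below all early ones (7.50% of all genes) against 1 above (7.46%). None of the 22 had an adjusted p under 0.05 in limma, and 15 had an unadjusted p under 0.05 (7.68% of all genes). *CRL1*, *ERF61*, *CRL5* and *CRL6* were not matched, and *CRL4* had a probe set outside the gene count (difference 0.05, SE 0.15, adjusted p = 0.955). *OsPLT4* was sought under a locus other than the one the study lists, and was not analysed. Many of the regulators were singled out by the study from these same arrays for a difference from cortex, so the count is not independent evidence of a direction. The study lists *OsSCR1* and *OsSHR1* as different from cortex at the early stage only, and *OsPLT5* and *OsPLT6* at the early and intermediate stages. It picked out *OsPLT3* and *PSK1* as the most raised early and decreasing later. Lower late values of these genes are thus partly set by that choice. Other factors that the study lists, *ERF79*, *ERF99*, *ERF120*, *MYBS60* and *WRKY108*, were not sought.

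*OsPLT3* (LOC4329975), a PLETHORA factor of the AP2 family, had 6.80, 7.00 and 7.22 on early, 6.94, 6.37 and 7.00 on intermediate and 6.21, 6.07 and 5.84 on late arrays. The late arrays were all lower, while the intermediate ones overlapped the early ones (difference -0.97, SE 0.16, adjusted p = 0.274). Its paralogue *OsPLT1* (LOC4337245) differed by less than the threshold, with 5.25, 5.68 and 5.58 on early and 5.80, 5.70 and 5.74 on late arrays (difference 0.24, adjusted p = 0.757). This was the single regulator whose late arrays all lay above the early ones. *OsPLT5* (LOC4325035) and *OsPLT6* (LOC4350315) differed by -0.65 (adjusted p = 0.570) and -0.40 (adjusted p = 0.719), and neither passed.

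The pair of GRAS factors that specify the ground tissue were both lower, a direction that their choice from these arrays favours. *OsSHR1* (LOC4343753), the homologue of SHORT-ROOT, which in Arabidopsis moves from the stele into the endodermis, had 6.12, 5.93 and 5.93 on early, 5.73, 4.66 and 5.79 on intermediate and 5.17, 4.41 and 4.51 on late arrays (difference -1.30, SE 0.21, adjusted p = 0.274). *OsSCR1* (LOC4349638), the homologue of its target and partner SCARECROW, had 4.30, 4.03 and 3.65 on early, 2.97, 2.54 and 2.89 on intermediate and 3.32, 2.40 and 2.70 on late arrays (difference -1.19, SE 0.28, adjusted p = 0.435). The orders differed, since *OsSCR1* was already low on all 3 intermediate arrays and *OsSHR1* on 1 of them. Rice holds a close copy of *OsSCR1*, and whether its probe set tells them apart was not tested. A zinc finger gene like Arabidopsis Magpie (LOC4327694), whose relatives act with SHORT-ROOT and SCARECROW, had 8.08, 8.58 and 8.76 on early, 7.96, 7.33 and 8.65 on intermediate and 7.67, 7.09 and 6.93 on late arrays (difference -1.24, SE 0.26, adjusted p = 0.358).

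*OsWOX9* (LOC4324824), also called *QHB*, is a homeobox gene of the quiescent centre. Its signal was 4.81, 4.44 and 4.36 on early, 4.40, 3.73 and 4.51 on intermediate and 3.79, 3.76 and 3.66 on late arrays, with no overlap between early and late (difference -0.80, SE 0.15, adjusted p = 0.319). *OsWOX11* (LOC4344325) and *OsWOX10* (LOC4345042), which act in crown root emergence and growth, were at or below the median signal at both stages and differed by -0.09 (adjusted p = 0.883) and -0.32 (adjusted p = 0.584). *PSK1*, the precursor of the growth peptide phytosulfokine, had 7.08, 7.60 and 7.34 on early, 6.53, 6.00 and 7.39 on intermediate and 5.97, 5.66 and 4.04 on late arrays. Late replicate 3 was the lowest array by far, and the difference was -2.12 (SE 0.49, adjusted p = 0.433).

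*OsLBD3-6* (LOC4333627), of the LBD family that acts downstream of auxin in root initiation, had 5.07, 5.50 and 5.03 on early, 4.43, 4.87 and 5.05 on intermediate and 4.24, 4.24 and 3.76 on late arrays (difference -1.12, SE 0.19, adjusted p = 0.292). Cortex was higher than either, at 5.81 to 6.18. *OsTCP7* (LOC4330080) was lower in late primordia by a similar pattern, with 4.47, 6.09 and 4.94 on early and 2.55, 4.12 and 3.16 on late arrays, and it just missed the unadjusted threshold (difference -1.89, SE 0.53, adjusted p = 0.507). Within each replicate number the late array lay below the early one, and with the replicate as a block it passed (adjusted p = 0.129). Proteins with a SWIB domain are known as parts of chromatin remodelling complexes. Of the 4 genes with this domain, LOC4334190 passed, with 8.56, 8.99 and 8.56 on early, 8.49, 7.78 and 8.16 on intermediate and 8.08, 7.55 and 6.82 on late arrays (difference -1.22, SE 0.32, adjusted p = 0.480). The other members, LOC4352303, LOC4328187 and LOC4335638, differed by -1.15, -0.78 and -0.42 and did not pass (adjusted p = 0.621, adjusted p = 0.549 and adjusted p = 0.557). The auxin response factors *ARF5* (LOC4328265) and *ARF24* (LOC4352211) differed by -0.64 (adjusted p = 0.679) and -0.51 (adjusted p = 0.491, under 1.5-fold).

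**Figure D3:**
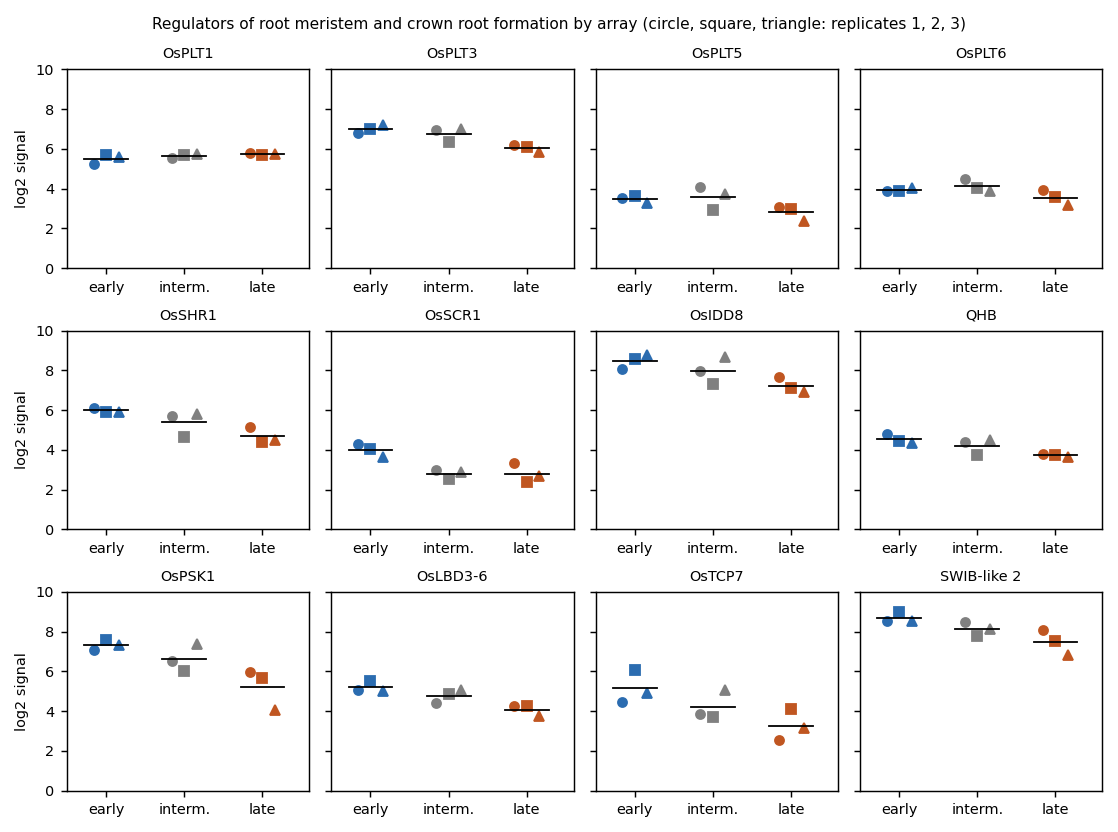
Signal (log2) of 12 of the regulators on each early, intermediate and late array, 1 panel a gene, with a marker shape for each replicate and a bar for the group mean. The late arrays lie below the early ones in every panel but *OsPLT1* and *OsPLT6*, and the intermediate arrays spread between or over both.

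Among the genes lower in late primordia by the most that carry a description, LOC9271482, an expressed protein, had 8.48, 8.25 and 8.31 on early, 6.84, 6.29 and 7.61 on intermediate and 5.64, 5.62 and 4.40 on late arrays. The 3 intermediate arrays lay between both groups, and the difference was -3.13 (SE 0.34, 8.76-fold, adjusted p = 0.0930). A gene weakly similar to an Arabidopsis histone H3, LOC4349820, had 4.53, 5.58 and 4.46 on early and 2.58, 3.10 and 3.30 on intermediate arrays, already near the late values of 2.74, 2.20 and 2.17 (difference -2.49, SE 0.33, adjusted p = 0.164). *OsTPP4* (LOC4330753), a trehalose-6-phosphate phosphatase, lay just outside the adjusted threshold, with 5.20, 4.59 and 5.35 on early, 3.65, 3.00 and 4.59 on intermediate and 2.84, 2.63 and 2.90 on late arrays (difference -2.25, SE 0.21, adjusted p = 0.0590). Trehalose-6-phosphate is a sugar signal, and the enzyme removes it. The higher gene closest to the threshold from outside was the unnamed LOC4341631 (difference 2.50, adjusted p = 0.0538).

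Hormone genes among the passing set were scattered over several pathways. LOC4351432, similar to the Arabidopsis auxin efflux carrier PIN4, had 5.32, 4.63 and 4.17 on early, 3.61, 3.70 and 4.57 on intermediate and 3.20, 3.10 and 2.73 on late arrays (difference -1.69, SE 0.30, adjusted p = 0.293). *CYP724B1* (LOC4336116), an enzyme of brassinosteroid synthesis also known as *D11*, had 4.26, 4.55 and 4.59 on early, 3.71, 3.25 and 3.71 on intermediate and 3.47, 3.42 and 3.25 on late arrays (difference -1.08, SE 0.14, adjusted p = 0.136). The intermediate arrays were near the late ones. Of 28 Aux/IAA repressors, *IAA23* (LOC4341432) was lower by a difference of -0.75 (adjusted p = 0.374) and *IAA24* (LOC4342573) higher by 0.76 (adjusted p = 0.458), and the median of the list was -0.02. *LOGL6* (LOC4336417), of the family that releases active cytokinin, differed by -0.61 (adjusted p = 0.502). On the jasmonate side *COI1B* (LOC4338955), of the receptor family, had 3.72, 3.71 and 3.58 on early, 4.32, 4.52 and 4.14 on intermediate and 4.30, 4.97 and 5.03 on late arrays (2.14-fold, SE of the log2 difference 0.21, adjusted p = 0.333). None of these reached an adjusted p of 0.05.

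Genes of DNA replication and of histone H2B mostly lay below 0. Histone H2B genes had the lowest median of 66 gene lists, -0.44 over 9 members against 0.00 over all genes, with 8 below 0 and none passing (median -0.72 to -0.20 over the alternatives). In each of these 8 late replicate 3 was the lowest late array. *H2B.10* (LOC4324495), one of the brightest, had 11.10, 10.91 and 11.04 on early, 10.65, 10.30 and 10.62 on intermediate and 10.69, 10.07 and 9.63 on late arrays (difference -0.89, SE 0.26, adjusted p = 0.520). Histone genes are alike in sequence, so their probe sets may share signal. Over 30 DNA replication genes the median was -0.22, with 26 below 0 and none passing (median -0.38 to -0.05 over the alternatives), and the largest difference was that of *OsRPA32-3* (LOC9266781) at -0.63 (adjusted p = 0.764). Cyclins and cell cycle kinases had a median of -0.05 over 52 genes and none passed. The inhibitor *KRP5* (LOC4331554), which brakes the cell cycle, had 7.38, 7.47 and 8.02 on early and 7.27, 6.00 and 6.09 on late arrays (difference -1.17, adjusted p = 0.547), so the late arrays were all lower but did not pass.

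All 7 TCP factors with a name were below 0 (median -0.26 against 0.00 over all genes, and -0.39 to -0.18 over the alternatives). Of them 2 were lower and passing (0.757% of all genes). TCP proteins control cell proliferation, and the class that holds *PCF2* was first described in rice as binding the promoter of the replication factor PCNA. *PCF2* (LOC4346214) had 4.50, 5.17 and 4.50 on early, 3.80, 4.42 and 4.41 on intermediate and 3.53, 3.11 and 3.43 on late arrays (difference -1.36, SE 0.22, adjusted p = 0.274). *PCF3* (LOC4349919) differed by -0.83 (adjusted p = 0.487). In the homeobox list 29 of 39 genes were below 0 (median -0.11 against 0.00 over all genes), and 1 was lower and passing (0.757% of all genes). This was *OSH1* (LOC4333973), a KNOX gene known from the shoot meristem, at a low level (difference -0.74, adjusted p = 0.419). *TUB2* (LOC4331315), a beta-tubulin, and *KIN14A* (LOC4327702), a kinesin, differed by -0.72 (adjusted p = 0.400) and -0.66 (adjusted p = 0.435).

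Wall genes lay on both sides of 0. Expansins, which loosen the wall, had a median of -0.02 over 45 genes, with 3 lower and passing (0.757% of all genes) and none higher (0.633%). *EXP7* (LOC4334606) had 6.34, 6.10 and 6.17 on early, 5.84, 5.68 and 6.35 on intermediate and 5.27, 5.12 and 5.22 on late arrays (means 6.20 and 5.20, SE of the difference 0.12, adjusted p = 0.105). The late arrays agreed closely and were also below the cortex arrays, at 6.05 to 6.39. *EXPB4* (LOC4349350) and *EXP16* (LOC4341549) differed by -0.83 (adjusted p = 0.419) and -0.68 (adjusted p = 0.446). *GLU13* (LOC4340679), an endoglucanase, had 8.19, 8.65 and 8.78 on early, 8.32, 6.97 and 8.28 on intermediate and 7.41, 7.25 and 6.66 on late arrays (difference -1.43, SE 0.25, adjusted p = 0.292). LOC4334157, weakly similar to an Arabidopsis protein that binds callose at plasmodesmata, the channels between cells, differed by -1.85 (SE 0.27, adjusted p = 0.234). In the other direction *Os-UGD4* (LOC4352146), a UDP-glucose dehydrogenase that feeds wall sugar synthesis, had 5.13, 5.48 and 5.14 on early, 6.31, 7.30 and 4.87 on intermediate and 7.02, 7.09 and 5.87 on late arrays (difference 1.41, SE 0.34, adjusted p = 0.437). Cellulose synthase-like genes had the highest list median, 0.14 over 25 genes, with 18 above 0 and none passing.

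The named genes higher in late primordia had varied functions. *LOX3* (LOC4333818), a lipoxygenase, had 5.38, 6.33 and 6.53 on early, 7.69, 7.83 and 6.80 on intermediate and 8.17, 7.96 and 8.24 on late arrays (difference 2.04, SE 0.30, adjusted p = 0.242). All intermediate arrays were above all early ones. *CML27* (LOC4332731), another calmodulin-like gene, had 2.50, 3.43 and 3.51 on early, 4.53, 6.32 and 4.30 on intermediate and 5.37, 5.56 and 4.45 on late arrays (difference 1.98, SE 0.38, adjusted p = 0.341), opposite in direction to *CML10*, while the 36 calcium sensors had a median of -0.02. *GER1* (LOC4344840), listed with the germins by its symbol, had 2.02, 4.09 and 1.96 on early and 5.17, 5.50 and 4.63 on late arrays (difference 2.41, SE 0.59, adjusted p = 0.458), with early replicate 2 apart from the others. *ADF-10* (LOC4349142), which severs actin filaments, had 4.11, 5.86 and 6.11 on early and 7.63, 6.87 and 7.42 on late arrays (difference 1.94, SE 0.53, adjusted p = 0.493), and its cortex signal was 6.81 in replicate 1 against 1.84 and 2.76.

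*FOR1* (LOC4343645), a leucine-rich repeat protein related to inhibitors of polygalacturonase, was bright at both stages, with 7.24, 8.03 and 7.76 on early, 7.98, 8.76 and 8.02 on intermediate and 9.09, 8.87 and 8.58 on late arrays (difference 1.17, SE 0.23, adjusted p = 0.354). *CSase* (LOC4334101), a cysteine synthase, and *OsNrx1-2* (LOC4333077), a nucleoredoxin, differed by 1.22 (adjusted p = 0.319) and 1.21 (adjusted p = 0.417). A gene weakly similar to an Arabidopsis glutathione transferase, LOC4331534, differed by 1.71 (adjusted p = 0.437), and the superoxide dismutase *SODCC.2* (LOC4344210) by 0.70 (adjusted p = 0.480). The zinc finger genes *LSD1* (LOC4344713) and *LOL1* (LOC4343203), whose Arabidopsis relative restrains cell death under oxidative stress, differed by 0.63 (adjusted p = 0.374) and 0.59 (adjusted p = 0.462). The AP2 factor *AP2-1* (LOC4337654) and the vacuolar aquaporin *OsTIP2;2* (LOC4340941) differed by 0.97 (adjusted p = 0.437) and 0.88 (adjusted p = 0.480). In each of these genes the late arrays lay above the early arrays, and none had an adjusted p under 0.05.

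Most passing genes had no name. Of the 336 passing genes 57 had a name, 63 only a description and 216 neither, and the descriptions come from the part held here of the study's table of genes that differ from cortex, so they favour such genes. Besides LOC4332245 and LOC4324342, the largest upward differences were in LOC4326970, with 2.91, 3.38 and 3.43 on early, 5.35, 7.16 and 4.87 on intermediate and 5.44, 7.47 and 7.33 on late arrays (difference 3.51, SE 0.54, adjusted p = 0.243), and LOC9271283 (difference 3.25, SE 0.88, adjusted p = 0.491). The largest downward differences among genes with neither were in LOC9271636, LOC4344334, LOC4337874 and LOC4337468, with differences of -1.88, -1.82, -1.79 and -1.70.

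Over the 66 lists, which hold 1442 genes, 11 genes passed higher (0.763% of these, against 0.633% of all genes) and 20 lower (1.39% against 0.757%), spread over 23 lists, and 43 lists had no passing member. Only 1 list held a gene past the adjusted p, the calcium sensors with *CML10*. The list medians ran from -0.44 to 0.14, and 12 of the 66 lay outside -0.10 to 0.10, of which cellulose synthase-like genes alone were above. After histone H2B came the GRAS factors (-0.30 over 7 genes, with *OsSHR1* and *OsSCR1* as the passing members), TCP factors (-0.26), DNA replication (-0.22) and growth-regulating factors (-0.16 over 10). Ribosomal proteins (0.07 over 22 genes), translation factors (-0.03 over 8) and the proteasome (-0.02 over 19) lay near 0.

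**Figure D4:**
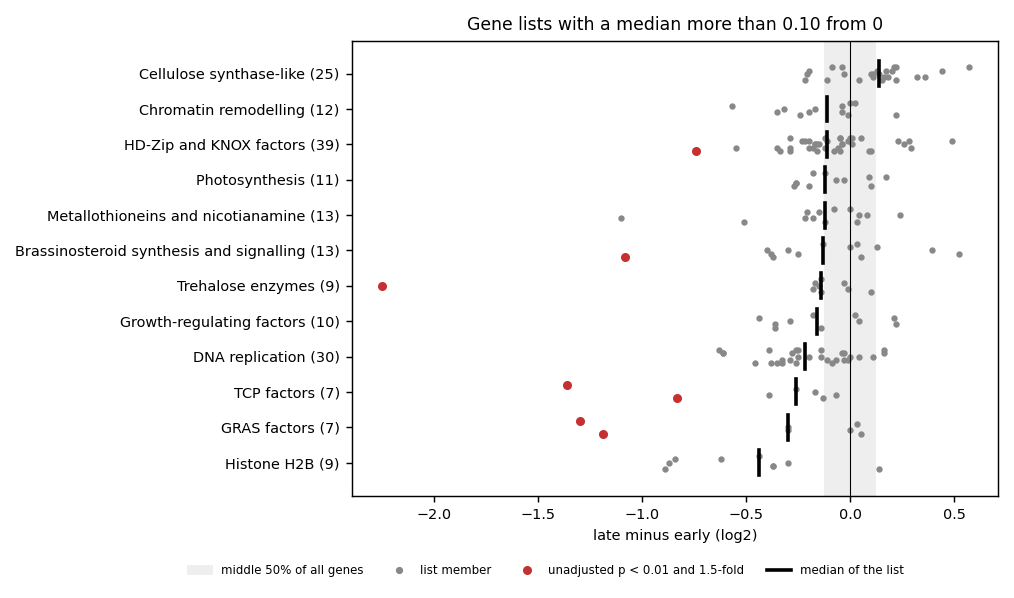
Late minus early difference (log2) of the members of the 12 lists with a median outside -0.10 to 0.10, with a bar for each median, red points for passing members and grey shading between the quartiles of all genes. The median of all genes is 0.00, histone H2B lies lowest at -0.44 and cellulose synthase-like genes highest at 0.14.

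The intermediate arrays were placed on the path from early to late. For each passing gene the early mean was set to 0 and the late mean to 1, and the mean of the 3 intermediate arrays then had a median share of 0.55, 0.60 for the higher and 0.51 for the lower genes. It lay between both means in 326 of 336 genes. Genes chosen for a difference between the outer stages tend to have the middle one between them, so this count is given as a description. What the choice did not set is how the 3 arrays differ from each other. Intermediate replicate 2 had a median share of 0.85, close to late, replicate 1 had 0.52 and replicate 3 had 0.27, close to early. Replicate 2 was the highest of the 3 in 122 of 153 higher genes and the lowest in 115 of 183 lower genes, and replicate 3 was the lowest in 109 of 153 and the highest in 115 of 183. These counts cover passing genes only, and the order of the 3 arrays over all genes was not counted. The late arrays (replicates 1 to 3) had median shares of 0.81, 1.01 and 1.18 for the lower and 0.94, 1.05 and 1.01 for the higher genes.

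**Figure D5:**
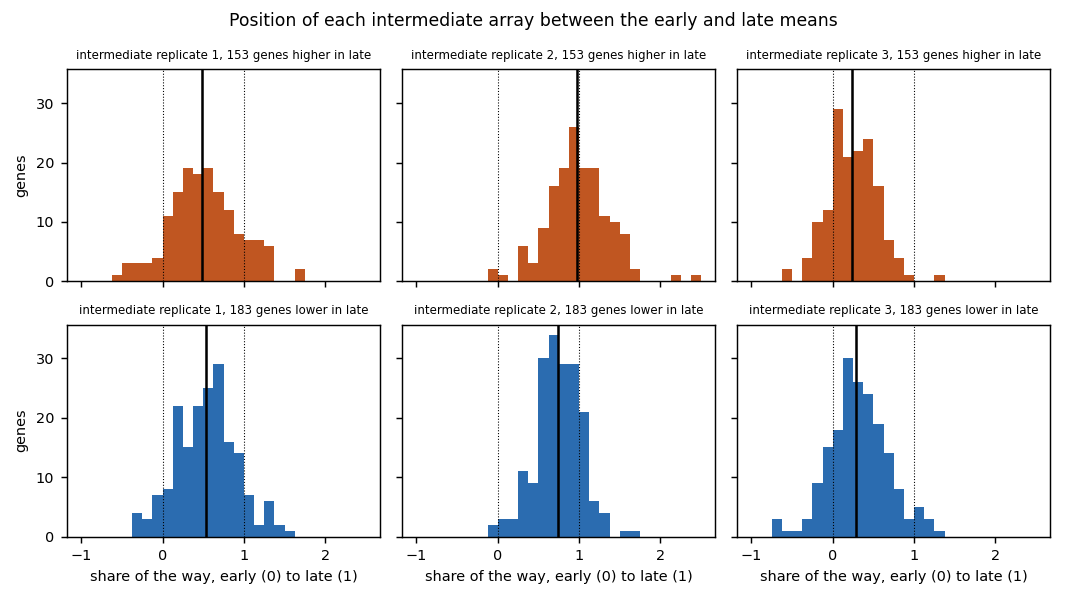
Number of passing genes by the share of the way from the early mean (0) to the late mean (1) on each intermediate array, higher genes in the upper and lower genes in the lower row, with a line at each median. Replicate 2 lies nearest late (median 0.97 and 0.74), replicate 1 in the middle (0.49 and 0.54) and replicate 3 nearest early (0.24 and 0.29).

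Cortex was set beside the same genes. Genes chosen for a higher mean at either stage tend to have that mean above another group, so the counts are a description. Shares over all genes are not given here. Of the 183 lower genes the early mean was above all 3 cortex arrays in 132, and on the same scale the cortex arrays had median shares of 0.98, 0.98 and 0.67. The late mean of these genes was above all 3 cortex arrays in 39 and below all of them in 68. Of the 153 higher genes the late mean was above all 3 cortex arrays in 106. There the cortex arrays disagreed, with median shares of 0.60 in replicate 1 and -0.01 and -0.04 in replicates 2 and 3, and in 39 of the 153 cortex replicate 1 was above the others by over 1, against 4 of the 183. The cortex arrays took no part in the test of late against early.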

How the data were processed

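For each array of a rice gene chip the authors deposited log2 signals of all probe sets, already normalized and summarized. The methods give Robust Multi-array Average (Transcriptome Analysis Console), and the submitters' processing notes give GCRMA and the Affymetrix Expression Console. Which made the values was not settled, and it could change the spread and the differences of dim genes. Precision is limited by the number of arrays.

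Of 36643 probe sets, 24161 carried 1 gene in the platform annotation, 90 several and 12392 none. All entered a limma fit (limma 3.58.1, R 4.3.3, lmFit and eBayes, prior degrees of freedom 2.53) of the 3 late and 3 early arrays. The probe set with the highest mean stood for a gene, and p was adjusted (Benjamini-Hochberg) over 24160 genes. Names came from NCBI's rice gene table (2743 genes) and descriptions from the part held here of the paper's table of genes differing from cortex (1149 genes). No genome was used.

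Members and lists were chosen with earlier results of these data known. Named genes are the 7 past the adjusted p, the 12 largest passing differences each way with a name or description and 4 without. To these were added up to 3 passing members of each list (else the largest) and the regulators matched among the 28 sought. LOC4341631 was named after its values were seen.

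The extract protocol in the labels ties each repetition to a pair of stem bases for all stages and cortex, so the numbers were taken to pair samples. Deviations of same-numbered late and early arrays correlated at -0.0617 to 0.0113 (3 pairs), and those of other numbers at -0.0588 to 0.0547. Same-numbered intermediate and late arrays correlated at 0.194 to 0.355, others at -0.263 to -0.0377. The main fit has no block, since the study's methods name none, and the block is an alternative. The fit was tested on simulated data.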

Additional observations from a re-analysis of the deposited data

How the results depend on the processing

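The count of genes past the adjusted p depended on the setting more than the passing count did. Against 7 genes, it was 1 with the 9 primordium arrays in the fit (*CML10*), 0 with all 12 arrays (1499 genes at an unadjusted p under 0.05 in limma), 11 with array weights, 3 with an intensity trend in the prior, 4 after quantile normalization again and 16 for genes above the median signal. With the replicate block it was 1 on 6 arrays (LOC4332245) and 0 on 9 (2007 at an unadjusted p under 0.05). Leaving out 1 array gave 0 to 4, and leaving out 1 replicate number in both stages 0 to 2. The causes were not tested, and some of these settings hold fewer arrays or genes. It was 7 with a robust prior, with median centring, with all probe sets of a gene and with p adjusted over all probe sets, and 10 above the 20th percentile of signal.

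The passing count was 336. It stayed within 267 to 434 under the settings that keep all arrays. With the 9 primordium arrays 273 of the passing genes were among the 336, and with the replicate block on 6 arrays 256. It was 242 to 456 with 1 array left out and 464, 197 and 195 without replicate 1, 2 or 3. Against 153 higher and 183 lower, higher genes outnumbered lower ones without late replicate 3 (219 and 114), late replicate 2 (127 and 115), early replicate 2 (160 and 157), replicate 2 (118 and 79) and replicate 3 (114 and 81), and lower ones were the more without replicate 1 (127 and 337).

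Over the 116 named genes and their alternatives, 2039 of 2417 values kept direction and side of the threshold, 331 lost the threshold, 39 gained it and 8 turned. The 8 belong to 4 genes that did not pass. *LOL2* (LOC4325320) was at -0.05 with array weights and ran from -0.30 to 0.41 with arrays left out (also -0.26). The others ran from -0.10 to 0.88 (*MPK10*, LOC4326668, also -0.08), -0.07 to 0.22 (LOC4332242, also -0.03) and -0.71 to 0.03 (LOC4325001) with arrays left out. The cause was not tested. Of 60 passing named genes 15 passed under every alternative that gave a value. Of 1385 list medians 44 moved by over 0.1.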

Other observations

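Probe sets with several genes or none, 12482 in all, were left out of the report. In the same fit, with p adjusted over all probe sets, 1 of them was higher and 1 lower in late primordia at an adjusted p under 0.05 and 1.5-fold, and 126 were higher and 74 lower at an unadjusted p under 0.01 and 1.5-fold, against 153 and 183 among genes.

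Among the passing genes, 5 pairs were neighbours in the order of the reference gene table, 3 in the same direction and 2 in opposite directions. The endoglucanase gene *GLU13* (LOC4340679) and its neighbour LOC4340678 were both lower in late primordia, by differences of -1.43 and -1.07. LOC4324342, which rose by 3.22, lies beside LOC4324344, which was higher by 1.07. *OsTPP4* (LOC4330753) was lower by a difference of -2.25 while its neighbour LOC4330752 was higher by 0.94. These neighbours were named after their values were seen.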
